A study of Mus musculus with 8 samples.

Results

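The genes of the COP1-DET1-CUL4 ubiquitin ligase and of its Tribbles adaptors were followed in 4 Cop1 knockout (KO) and 4 Cop1 wild-type (WT) libraries of FT1CL, a line of mouse acute myeloid leukemia. The members were Cop1, Det1, Dda1, Ddb1, Cul4a, Cul4b, Rbx1, Trib1 and Trib3, taken by Ensembl identifier from a table of splice junctions. They make up 9 of its 13378 genes and 109 of its 134051 junctions, and none was lost to the filter on low levels. KO cells carry the genotype Cop1 ko/ko and were treated with 4-hydroxytamoxifen, whereas WT cells carry Cop1 +/+ in the labels and were untreated, so drug and genotype changed together. Both groups share the rest. The line came from marrow of an 8-week-old mouse with a conditional Cop1 allele and Rosa26-Cre-ERT2, taken 5 days after 150 mg/kg 5-fluorouracil and transduced with a pMYs retrovirus that carries Trib1. All cells grew in 10% serum with 5 ng/mL interleukin-3. A single line was used. Whether its libraries were grown as separate cultures is not said in the labels, and the p-values then cover only the spread among these 8, which may be technical.

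Ubiquitin ligases of the CUL4 type are built on a cullin scaffold. DDB1 docks on the cullin and holds a substrate receptor, and the RING protein RBX1 brings in the ubiquitin-charged E2 enzyme. In mammalian cells DET1, together with DDB1, DDA1 and CUL4, forms a ligase with COP1, which is itself a RING protein. Tribbles proteins are pseudokinases that bind COP1. TRIB1 and TRIB2 carry C/EBPα, a factor needed to make granulocytes, to COP1 for degradation. In mice an excess of Trib1 or Trib2 gives rise to acute myeloid leukemia.

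The results turn on 2 genes most of all, Cop1 and Trib1, and the junctions that carry them are shown as the transcripts spell them, in Gencode release M21 on build mm10, plus strand, with 30 bases on each side of the splice. The first pair of lines gives the junctions on either side of Cop1 exon 3, and capitals mark bases of exon 3 (chr1:159244589-159244686). The neighbouring exons are chr1:159239562-159239621 and chr1:159249202-159249278. The next line is exon 3 itself, 98 bases long, all coding and not a multiple of 3. The last pair gives the junctions of Trib1, where capitals mark exon 2 (chr15:59651479-59651771), between exon 1 (chr15:59648350-59649522) and exon 3 (chr15:59654236-59657099).
Cop1 exons 2 and 3: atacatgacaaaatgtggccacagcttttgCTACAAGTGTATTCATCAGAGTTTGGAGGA
Cop1 exons 3 and 4: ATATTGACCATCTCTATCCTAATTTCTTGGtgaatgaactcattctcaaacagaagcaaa
Cop1 exon 3: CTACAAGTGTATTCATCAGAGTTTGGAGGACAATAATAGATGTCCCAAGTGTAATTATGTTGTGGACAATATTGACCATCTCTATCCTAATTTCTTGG
Trib1 exons 1 and 2: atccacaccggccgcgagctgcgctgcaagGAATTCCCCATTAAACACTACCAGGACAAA
Trib1 exons 2 and 3: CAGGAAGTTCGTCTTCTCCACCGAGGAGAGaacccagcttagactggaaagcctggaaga
All 3 exons of this Trib1 transcript hold coding sequence, so both of its junctions lie within the coding region. Reads from the retroviral copy and from the cell's own gene cannot be told apart there. The table numbers exon blocks without coordinates. Blocks 1 to 20 of Cop1 match the 20 exons of transcript Cop1-201 in number only.

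Levels are junction reads per 1000000 junction reads of the library (RPM), summed over a gene's junctions. Depth ran from 17333302 to 22469109 junction reads in KO and from 17811247 to 20981993 in WT. Both libraries numbered 4 stood apart from their groups: KO library 4 correlated across genes at 0.934 to 0.941 with the other KO libraries, against 0.970 to 0.975 among those, and WT library 4 at 0.948 to 0.956 with the other WT libraries, against 0.969 to 0.981. In each library some junction values were near 0 although the gene's other junctions were well read. Such a value is called dropped here, and members that hold one are given with and without the junctions concerned. Dropped values made up 7.15 ± 0.280% in KO and 7.28 ± 0.443% in WT (SD, n = 4 each). These shares are over the 86570 junctions that reached 40 reads in some library at a common total. Of the marker lists, the summed level of 6 late neutrophil genes ran from 392 to 9858 RPM in KO and from 6.79 to 45.5 RPM in WT, lowest in the libraries numbered 4 of each group. All 8 myeloid and leukemia markers were read in both groups, at a summed 3913 to 5697 RPM in KO and 1831 to 3593 RPM in WT. The KO means of Cd34 and Kit were 35.4% and 62.2% of WT. Those of Itgam, Csf2rb, Elane, Spi1, Ptprc and Mpo were 314%, 213%, 191%, 174%, 160% and 155% of WT. The groups overlapped for Kit, Itgam, Elane, Spi1 and Mpo. Mast cell and basophil genes, led by Cpa3, summed to 11416 to 16554 RPM in KO and 11791 to 13679 RPM in WT. Among them Mcpt8 ran from 2138 to 2780 RPM in KO and from 106 to 579.8 RPM in WT. Ms4a2 ran from 20.04 to 27.9 RPM in KO and from 8.84 to 16.1 RPM in WT, and both were without overlap. The KO means of Cpa3 and Fcer1a were 95.3% and 102.7% of WT, and the groups overlapped for both. B cell markers stayed at or below 3.38 RPM and T cell markers at or below 6.15 RPM in every library. Monocyte markers ran from 408 to 1311 RPM in KO and from 267 to 473 RPM in WT. Of these, Ly6c2 averaged 768 RPM in KO and 44.4 RPM in WT, and the KO means of Csf1r, F13a1 and Ccr2 were 94.1%, 74.0% and 88.1% of WT. Megakaryocyte markers ran from 518 to 900 RPM in KO and from 525 to 861 RPM in WT, nearly all from Itga2b, and erythroid markers ran from 4.097 to 11.7 RPM in KO and from 17.3 to 52.5 RPM in WT, where Hba-a1 made up most of the sum. The stromal list ran from 22.9 to 66.5 RPM in KO and from 151 to 207 RPM in WT, almost all of it from Pdgfrb, with Col1a1 at 0 in 3 of 4 KO and 4 of 4 WT libraries. The part of these markers in the results that follow was not tested, and in bulk RNA fewer cells of a type cannot be told apart from less RNA per cell.

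Of the 9 genes, 2 were lower in KO cells past the threshold, Cop1 and Cul4b, and none was higher. Among all 11003 genes tested 12.1% were lower and 8.49% higher at an adjusted p under 0.05 (limma, Benjamini-Hochberg over all genes), 1330 and 934 genes. With TMM scaling the split over all genes was 1017 lower and 1087 higher (9.24% and 9.88%), and Cop1 was the one member lower. With the replicate number as a block 2 members were lower, Cop1 and Cul4b, and 1, Trib1, was higher, where 15.7% of all genes were lower and 12.3% higher. With the block and the junctions with dropped values left out, 5 members were lower (Cop1, Det1, Ddb1, Cul4a and Cul4b) and 1, Trib1, was higher, where 23.5% of all genes were lower and 16.3% higher. Without both libraries numbered 4, 3 members were lower (Cop1, Ddb1 and Cul4b) and none higher, against 14.1% and 11.0% of all genes. DESeq2 gave 1 lower, Cop1, and 1 higher, Trib1, against 12.7% and 14.8%. The KO and WT values of Cop1, Det1 and Cul4b did not overlap, which was so in the lower direction for 15.4% of all genes tested. Without the junctions that hold dropped values the groups overlapped for Cul4b and did not overlap for Cul4a. With so few members, a count near this background is not a result about the set.

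**Figure D1:**
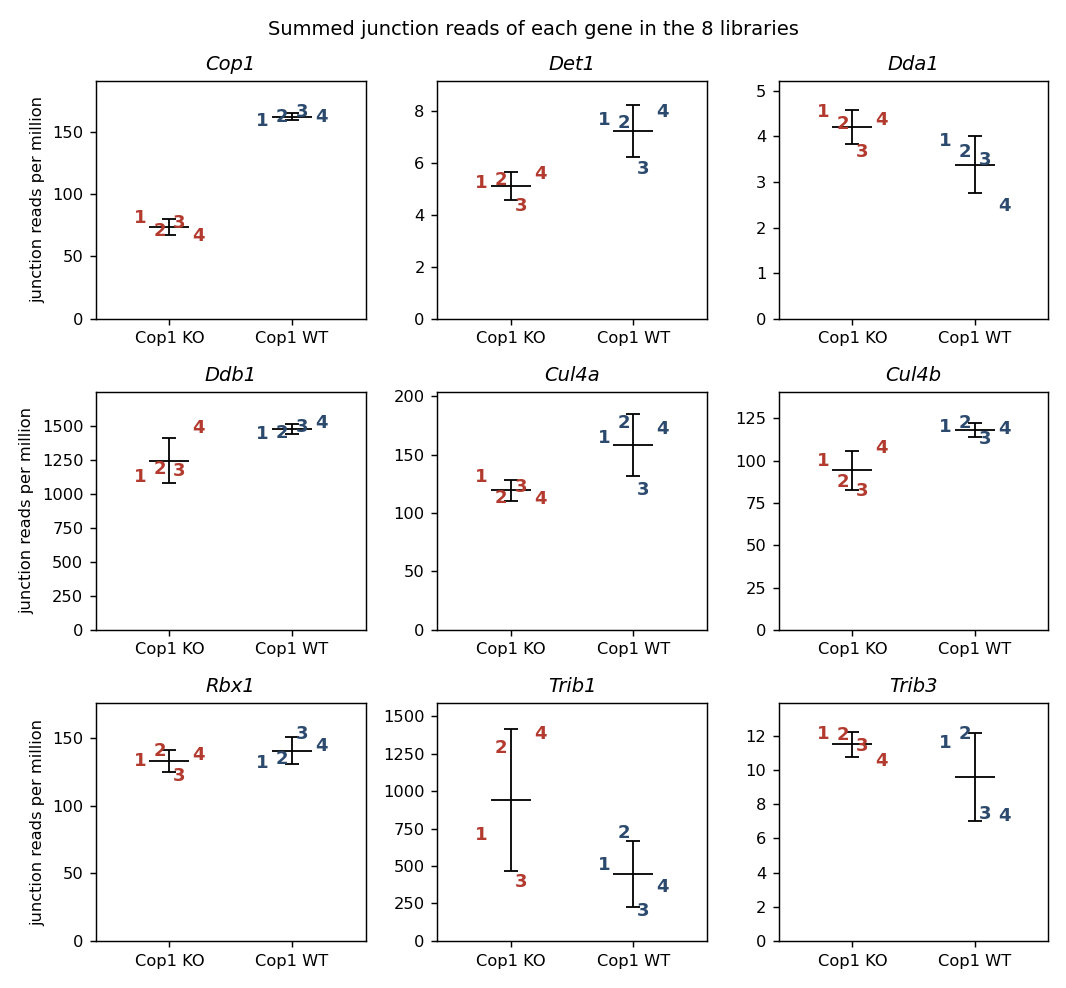
Summed RPM (vertical axes from 0) of the 9 genes in Cop1 KO (left) and Cop1 WT (right) libraries. Digits are library numbers, and the long dash and bar give the mean and SD of 4. With all junctions summed, KO values lie below all WT values for Cop1, Det1 and Cul4b, and Trib1 spreads from 390 to 1379 RPM in KO and from 199 to 720 RPM in WT.

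The typical level of a junction ordered the genes over a wide range in both groups. The deposited signal scales every junction by the same 60 nt. The median over a gene's junctions with at least 1 RPM and no dropped value was therefore compared between genes. Whether all junctions are read equally well was not tested. Trib1 was highest, at 344, 644, 192 and 669 RPM per junction in KO libraries 1 to 4, against 245, 351, 96.7 and 360 RPM in WT libraries 1 to 4. Ddb1 followed with a median of 48.2 ± 5.97 RPM per junction in KO and 58.3 ± 2.36 in WT, and Rbx1 with 32.7 ± 1.81 in KO and 34.0 ± 2.01 in WT (SD, n = 4 each). These top 3 genes did not overlap with each other or with the next in either group. In KO cells the order went on with Cul4a (7.55 ± 0.391), Trib3 (6.41 ± 3.55), Cul4b (4.57 ± 0.793), Cop1 (4.23 ± 0.614), Det1 (1.35 ± 0.281) and Dda1 (1.35 ± 0.421). In WT cells it was Cul4a (9.59 ± 1.07), Cop1 (8.67 ± 0.363), Cul4b (5.97 ± 0.413), Trib3 (4.54 ± 1.82), Det1 (2.06 ± 0.434) and Dda1 (0.898 ± 0.163). The levels of Trib1, Trib3 and Dda1 each rest on 1 junction. That of Dda1 passed the filter only through KO, as its WT mean lies below 1 RPM. In KO the neighbours from Cul4a to Cop1 overlapped in turn, as did Det1 and Dda1. In WT, Cul4a overlapped with Cop1, Cul4b with Trib3 and Trib3 with Det1. Cop1 thus stood at position 7 of the 9 genes in KO cells and at position 5 in WT cells. DDB1, which serves many other receptors, was read far above COP1: the Cop1 to Ddb1 ratio of typical junctions was 0.0892 ± 0.0208 in KO and 0.149 ± 0.00656 in WT (SD, n = 4 each).

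Cop1 (ENSMUSG00000040782, chromosome 1, 159232320 to 159347640, plus strand), the substrate receptor and the gene that the drug treatment deletes, was measured first as a check of the labels. Its level was 81.3, 70.3, 76.5 and 66.7 RPM in KO libraries 1 to 4, against 159, 162, 166 and 162 RPM in WT libraries 1 to 4. Every KO library was below every WT library, and the KO mean was 45.4% of the WT mean. The log2 fold change was -1.13 (SE 0.08, limma adjusted p = 4.91e-04). The KO libraries thus still held Cop1 RNA, 1218 to 1666 junction reads each.

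All 19 Cop1 junctions, each joining neighbouring blocks, were lower in KO, with no overlap between the groups at any of them, as held in that direction for 14.7% of all junctions tested. All 19 passed the junction test across 87540 junctions, of which 8.79% were lower and 4.87% higher at the same threshold. The junction of blocks 2 and 3 had 0.927, 1.10, 1.24 and 0.979 RPM in KO libraries 1 to 4, against 4.099, 4.88, 3.92 and 4.66 RPM in WT libraries 1 to 4. That of blocks 3 and 4 had 1.17, 1.38, 1.497 and 0.623 RPM in KO, against 5.81, 6.16, 6.24 and 5.11 RPM in WT. These were the lowest KO shares of the gene, 24.2% and 20.04% of the WT mean. Relative to the rest of the gene they were also less used, by -0.79 (adjusted p = 0.0016) and -1.13 (adjusted p = 2.74e-07) on the log2 scale in limma's diffSplice, where 0.323% of 86700 junctions were less used and 0.314% more used. The source of the residual reads beside block 3 was not tested.

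The loss was not even over the rest of Cop1 either. Beyond block 3 the KO share was 31.3% at the junction of blocks 4 and 5, and 38.9% at that of blocks 1 and 2, upstream of block 3. It then lay between 37.6% and 50.8% up to block 15, and reached 62.9% at the junction of blocks 18 and 19, with 6.29, 5.65, 4.90 and 3.87 RPM in KO libraries 1 to 4 against 6.72, 8.23, 8.09 and 9.88 RPM in WT libraries 1 to 4. The call at this last junction (limma adjusted p = 0.044) ended with the replicate block (0.087) and without KO library 4 (0.051). By segments, KO kept 33.2% of WT over junctions 1 to 5, 43.4% over junctions 6 to 10, 49.9% over junctions 11 to 14 and 51.8% over junctions 15 to 19. Junctions 1 to 5 include those beside block 3. Over junctions 1, 4 and 5 alone KO kept 38.8%. The position of a junction and its KO share went together, with a Pearson r of 0.76 over the 19 junctions and 0.70 over the 17 that do not touch block 3. This is a description only, since junctions of a gene share their libraries and their transcripts. The summed first 5 junctions over the summed last 5 gave a ratio of 0.399, 0.349, 0.443 and 0.443 in KO libraries 1 to 4, against 0.696, 0.631, 0.652 and 0.565 in WT libraries 1 to 4. In both groups the start of Cop1 was read less than its end, and more so in KO, without overlap (exact permutation p = 0.0286, two-sided, the smallest that 4 against 4 allows). The first 5 junctions include those beside block 3, so this ratio is not separate from the loss there. The segments were chosen with junction values known, so this p is a description.

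**Figure D2:**
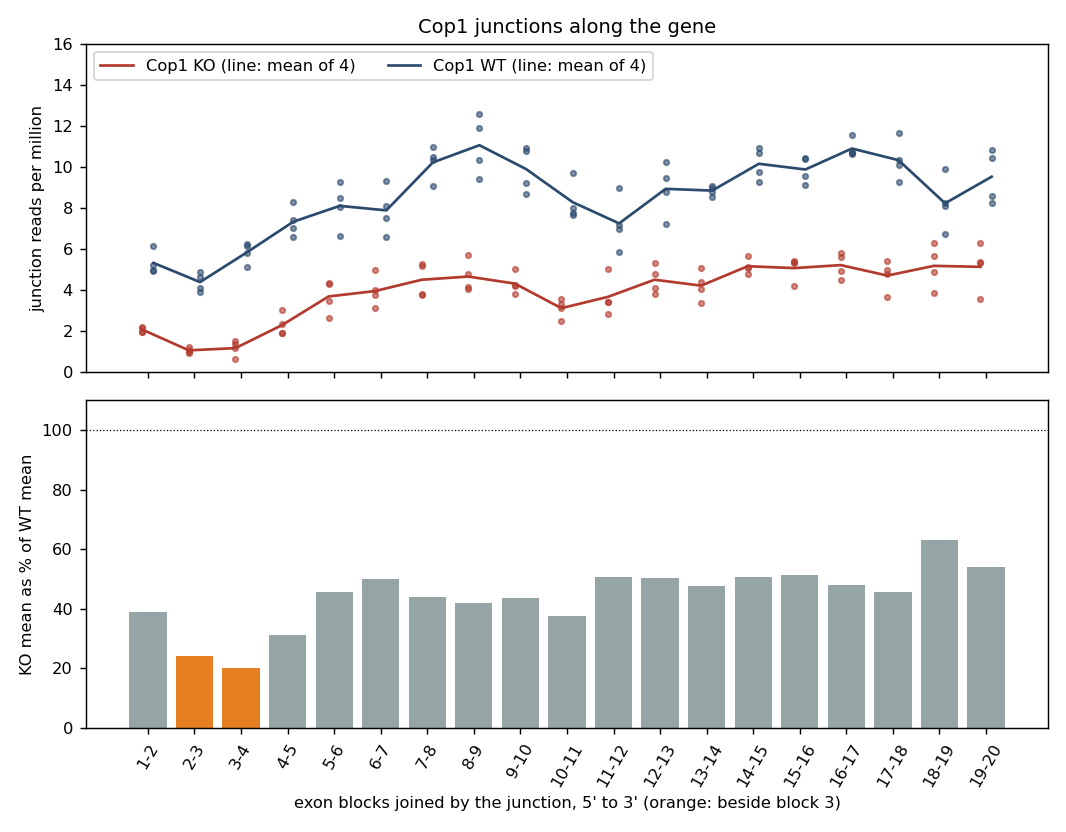
Top, RPM at the 19 Cop1 junctions from 5' to 3' in Cop1 KO (left of each pair) and Cop1 WT libraries, with points for libraries and lines for the mean of 4. Bottom, the KO mean as a percentage of the WT mean, which is lowest at the 2 orange junctions beside block 3 (24.2% and 20.04%) and reaches 62.9% at the junction of blocks 18 and 19.

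Det1 and Dda1, partners of COP1 and DDB1 in the ligase, were the least read of the 9 genes and pointed in opposite directions. Det1 (ENSMUSG00000030610, chromosome 7, 78821547 to 78847263, minus strand) had 5.22, 5.37, 4.34 and 5.56 RPM in KO libraries 1 to 4, against 7.67, 7.54, 5.77 and 7.97 RPM in WT libraries 1 to 4. The groups did not overlap, the KO library of each number was below its WT counterpart, and the KO mean was 70.8% of the WT mean. The log2 fold change of -0.42 (SE 0.15) missed the threshold at a limma adjusted p of 0.084. With the replicate block and without junctions that hold dropped values in other genes, which changes the genes around it but none of its own reads, the adjusted p was 0.036. Its 3 tested junctions had log2 fold changes of -0.63 to -0.39, none past the threshold, and the fourth, of blocks E2.2 and E3.1, stayed under the filter with 0.692 to 1.07 RPM in KO and 0.743 to 1.18 RPM in WT.

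Dda1 (ENSMUSG00000074247, chromosome 8, 71469199 to 71476098, plus strand), which stabilises the complex of DDB1 and its receptors, had 4.54, 4.27, 3.67 and 4.36 RPM in KO libraries 1 to 4, against 3.91, 3.66, 3.49 and 2.47 RPM in WT libraries 1 to 4. Each KO library was above the WT library of its number, but the groups overlapped and the log2 fold change of 0.26 (SE 0.17) did not pass (limma adjusted p = 0.31). These values rest on 71 to 98 reads per KO library and 44 to 82 per WT library, spread over 9 junctions. The one junction that reached the filter, of blocks E1.4 and E4.2, had 1.51, 0.981, 1.03 and 1.87 RPM in KO libraries 1 to 4 and 0.906, 0.956, 1.06 and 0.674 RPM in WT libraries 1 to 4. Its mean reached 1 RPM only through KO (1.35 RPM in KO, 0.898 RPM in WT), so its direction is not separate from the filter. Dda1 overlaps Ano8 on the opposite strand, and Det1 overlaps the noncoding 1700011D18Rik. The libraries were strand-specific, but whether strand was used in counting is not given in the sources used here, so reads of these pairs may not be separated.

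Ddb1 (ENSMUSG00000024740, chromosome 19, 10605327 to 10629819, plus strand), the adaptor that holds receptors on CUL4, was lower in KO at all 26 of its junctions, by a small amount. Its level was 1127, 1182, 1170 and 1487 RPM in KO libraries 1 to 4, against 1442, 1448, 1495 and 1520 RPM in WT libraries 1 to 4. KO libraries 1 to 3 lay below all WT libraries and KO library 4 lay among them. The log2 fold change was -0.26 (SE 0.09, limma adjusted p = 0.084). With TMM scaling it was -0.19 (limma adjusted p = 0.154) and with DESeq2 -0.17 (adjusted p = 0.195). Without KO library 4 it was -0.35 (SE 0.06, adjusted p = 0.0045), and without both libraries numbered 4 it was -0.33 (adjusted p = 0.0075). Over junctions the KO share ran evenly from 79.2% to 90.6% of WT. None of the 26 junctions passed with all 8 libraries (lowest adjusted p 0.064), and all 26 passed without KO library 4, where 12.6% of all junctions were lower. No Ddb1 junction differed in use. Ddb1 overlaps Tkfc on the opposite strand.

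Cul4a (ENSMUSG00000031446, chromosome 8, 13105621 to 13147940, plus strand), a cullin scaffold, held more dropped values than any other member, 17 in 9 of its 20 junctions. With all junctions its level was 131, 113, 123 and 112 RPM in KO libraries 1 to 4, against 164, 177, 120 and 173 RPM in WT libraries 1 to 4, and WT library 3 fell inside the KO range. The log2 fold change was -0.39 (SE 0.13, limma adjusted p = 0.070). In the 11 junctions without a dropped value the level was 70.2, 69.2, 63.8 and 72.5 RPM in KO libraries 1 to 4, against 91.3, 86.0, 77.4 and 95.6 RPM in WT libraries 1 to 4. There the groups did not overlap, and Cul4a fell, with a fold change of -0.34 on the log2 scale (SE 0.08) at a limma adjusted p of 0.018. At single junctions a dropped value could turn the picture: the junction of blocks E18.2 and E19.1 had 6.10, 6.52, 6.04 and 8.01 RPM in KO libraries 1 to 4 and 7.72, 7.48, 0.0529 and 9.10 RPM in WT libraries 1 to 4, the third WT value being a single read. The 9 tested junctions free of such values were all lower in KO, at 73.1% to 88.1% of WT, and that of blocks E28.1 and E29.2 passed the junction test (6.68, 6.23, 6.92 and 7.39 RPM in KO against 8.63, 9.08, 8.99 and 10.4 RPM in WT, log2 fold change -0.44, adjusted p = 0.027).

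Cul4b (ENSMUSG00000031095, chromosome X, 38533274 to 38576196, minus strand), the closely related second scaffold, was lower in KO by a similar amount. Its level was 99.7, 87.6, 82.1 and 107 RPM in KO libraries 1 to 4, against 120, 122, 113 and 119 RPM in WT libraries 1 to 4. The groups did not overlap, with KO library 4 nearest to WT. The log2 fold change was -0.33 (SE 0.10, limma adjusted p = 0.046). In the 18 junctions without a dropped value the level was 83.8, 75.0, 72.6 and 95.8 RPM in KO libraries 1 to 4, against 106.9, 104.0, 94.9 and 106.2 RPM in WT libraries 1 to 4. There KO library 4 lay above WT library 3, so that the groups overlapped, and the log2 fold change was -0.34 (SE 0.10, limma adjusted p = 0.032). The call with all junctions ended without any 1 of KO libraries 1 to 3 or WT libraries 1 to 4 (adjusted p 0.066 to 0.11), but not without KO library 4 (0.016), and it also ended under TMM scaling (0.077), with DESeq2 (0.052), with no filter (0.056) and on the most-read junction alone (0.43), in 12 of 23 alternatives in all. Of 21 junctions, 3 held 4 dropped values. Among them was the junction from E14.2 to I15.2, a block named as intronic, with 5.27, 3.92, 0.103 and 0.0890 RPM in KO libraries 1 to 4 against 5.77, 6.58, 6.51 and 5.45 RPM in WT libraries 1 to 4. Its use was lower in diffSplice (-2.49, adjusted p = 0.0054), a call that stands on KO libraries 3 and 4 with 2 reads each. The 17 tested junctions free of dropped values were all lower in KO, at 65.8% to 94.4% of WT, none past the threshold.

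The balance of both scaffolds did not separate the groups. Cul4b over Cul4a, by typical junction, was 0.593, 0.539, 0.562 and 0.722 in KO libraries 1 to 4, against 0.643, 0.632, 0.650 and 0.574 in WT libraries 1 to 4. These ranges overlapped (exact permutation p = 0.69). The sum of both over Ddb1 was 0.252 ± 0.0227 in KO and 0.267 ± 0.0258 in WT (SD, n = 4 each, exact permutation p = 0.43).

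Rbx1 (ENSMUSG00000022400, chromosome 15, 81466296 to 81476369, plus strand), the RING subunit that all CUL4 ligases share, had 133, 140, 122 and 137 RPM in KO libraries 1 to 4, against 131, 135, 153 and 144 RPM in WT libraries 1 to 4. The groups overlapped, 2 of 4 KO libraries were above the WT library of their number, and the log2 fold change of -0.08 (SE 0.08) did not pass (limma adjusted p = 0.53), with its sign turned under DESeq2 (0.00026) and under TMM without dropped junctions (0.0019). Its 4 junctions had KO shares of 91.8% to 99.8%. A processed copy, Rbx1-ps, exists in the genome, so that its reads are uncertain where the copies could not be separated.

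**Figure D3:**
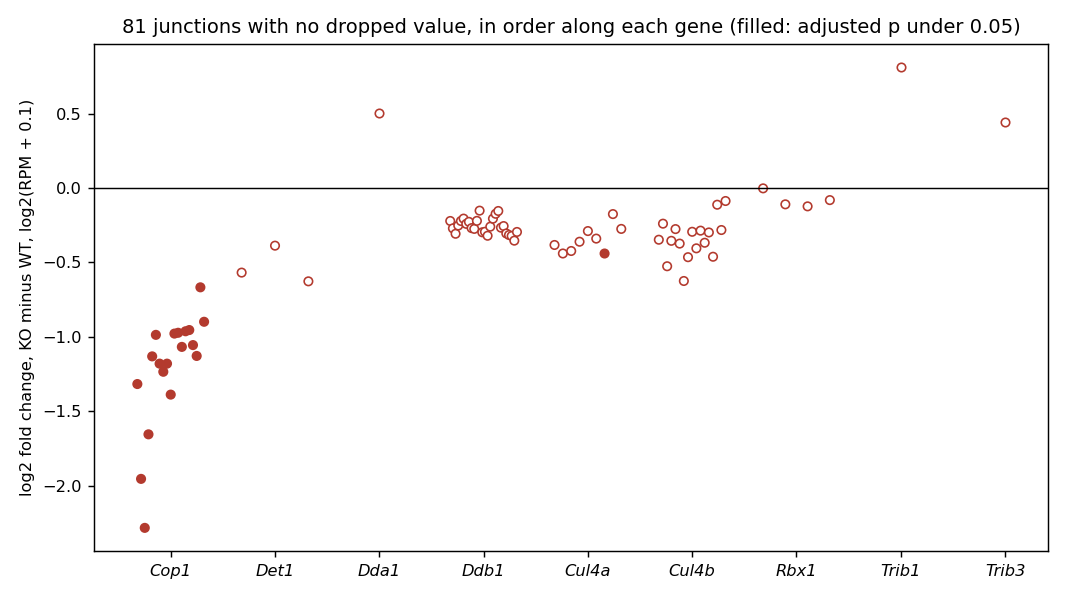
Log2 fold change (KO minus WT, on log2(RPM + 0.1)) of the 81 tested junctions without a dropped value, in block order within each gene, filled where the limma adjusted p was under 0.05. Filled points are the 19 junctions of Cop1 and 1 of Cul4a, and the 26 of Ddb1 lie between -0.35 and -0.15.

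Over the whole set, 96 of 109 junctions reached 1 RPM on average and were tested. Of these, 20 were lower and none higher (limma on log2(RPM + 0.1)), beside 8.79% and 4.87% of all junctions. With the replicate block 20 were lower and 1, the second junction of Trib1, was higher, beside 9.05% and 6.03% of all junctions. Without KO library 4, 48 were lower, beside 12.6% of all junctions: 18 of Cop1, 26 of Ddb1, 2 of Cul4a and 2 of Cul4b. Without both libraries numbered 4 the count was 40, beside 10.0% of all junctions. Of the 81 tested junctions without a dropped value, 78 had a fold change below 0, and the other 3 were the single such junctions of Dda1, Trib1 and Trib3. The 78 were 19 of Cop1, 26 of Ddb1, 17 of Cul4b, 9 of Cul4a, 4 of Rbx1 and 3 of Det1. Junctions of a gene share their libraries and transcripts, and the share of all junctions below 0 is not given here. The count is thus not a result about the set. The median log2 fold change of all genes was -0.07, and -0.0039 under TMM scaling.

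Trib1 (ENSMUSG00000032501, chromosome 15, 59648350 to 59657099, plus strand), the adaptor that the retrovirus carries, was higher in each KO library than in the WT library of the same number, while its level differed widely between numbers. Over both junctions it had 706, 1289, 390 and 1379 RPM in KO libraries 1 to 4, against 505, 720, 199 and 360 RPM in WT libraries 1 to 4. The groups overlapped, and the log2 fold change was 1.06 (SE 0.49, limma adjusted p = 0.16). The WT library 4 value is short of a junction: its first junction held 1 read where the second held 6410, while in the other 7 libraries the first held 1.0 to 1.07 times the reads of the second. The second junction, whose sequence is printed above, had 344, 644, 192 and 669 RPM in KO libraries 1 to 4, against 245, 351, 96.7 and 360 RPM in WT libraries 1 to 4. Library 3 was lowest in both groups. Libraries 2 and 4 were highest in both.

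Within each number the second junction of Trib1 was 1.41, 1.84, 1.98 and 1.86 times as high in KO as in WT. The numbers paired the libraries across all genes, and with the number as a block Trib1 passed, at a log2 fold change of 1.06 (SE 0.23, limma adjusted p = 0.021). On the second junction alone with the block it was 0.81 (SE 0.09, adjusted p = 6.42e-04), and without the block 0.81 (SE 0.53, adjusted p = 0.29). DESeq2 without a block also called it higher (1.16, adjusted p = 0.041), on both junctions and so with the short WT library 4 value. With both junctions the KO over WT ratio of number 4 was 3.83, against 1.86 on the second junction. Trib1 was among the most read junctions of the line: the second junction ranked 238, 63, 465 and 49 among the 134051 junctions in KO libraries 1 to 4, against 314, 211, 911 and 217 in WT libraries 1 to 4. Relative to its partner, the typical Trib1 junction was 67.9, 169, 44.8 and 179 times that of Cop1 in KO libraries 1 to 4, against 27.9, 42.7, 11.3 and 39.6 times in WT libraries 1 to 4. No KO value fell within the WT range (exact permutation p = 0.0286, the smallest that 4 against 4 allows), and as Cop1 is the deleted gene this ratio joins both differences. Trib1 moved by over 3 times between libraries of a group. The late neutrophil markers summed to 4749, 9858, 4209 and 392 RPM in KO libraries 1 to 4, against 40.8, 30.5, 45.5 and 6.79 RPM in WT libraries 1 to 4, and their part in the spread of Trib1 was not tested.

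**Figure D4:**
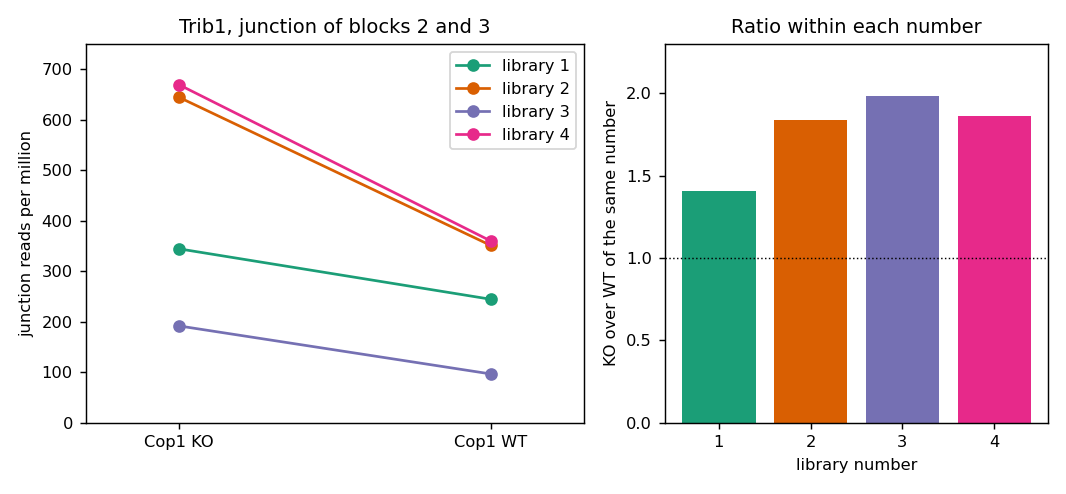
Left, RPM at the Trib1 junction of blocks 2 and 3 in Cop1 KO (left) and Cop1 WT (right) libraries, with lines joining libraries of the same number. Right, the KO over WT ratio of each number, from 1.41 to 1.98, with a dotted line at 1.

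Trib3 (ENSMUSG00000032715, chromosome 2, 152337422 to 152344032, minus strand), a Tribbles gene induced by stress through ATF4 and CHOP, was read far less than Trib1. It had 12.1, 12.1, 11.4 and 10.5 RPM in KO libraries 1 to 4, against 11.6, 12.1, 7.46 and 7.30 RPM in WT libraries 1 to 4. The groups overlapped and the log2 fold change was 0.27 (SE 0.19, limma adjusted p = 0.34). Of its 4 junctions, 2 held 6 dropped values. That of blocks E1.3 and E2.1 was near 0 in KO library 1 and WT libraries 1 to 3, and that of E2.2 and E3.1 in KO libraries 1 and 2. Of the other 2, that of E1.3 and E2.2 stayed under the filter at 0.103 to 0.585 RPM in KO and 0.159 to 0.319 RPM in WT, and that of E3.2 and E4.1 had 11.4, 6.58, 3.56 and 4.14 RPM in KO libraries 1 to 4, against 5.96, 5.95, 4.13 and 2.13 RPM in WT libraries 1 to 4. On the junction of E3.2 and E4.1 KO was higher in 3 of 4 numbers, and over both the log2 fold change was 0.36 (SE 0.37, limma adjusted p = 0.51). Trib2, the third Tribbles gene, was read only in the libraries numbered 4, with 10 reads in KO and 27 in WT. It had 0 reads in the other 6 libraries, where 0 allows at most 0.146 to 0.173 RPM in KO and 0.143 to 0.159 RPM in WT, counting 3 reads per library, and it was not tested.

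**Figure D5:**
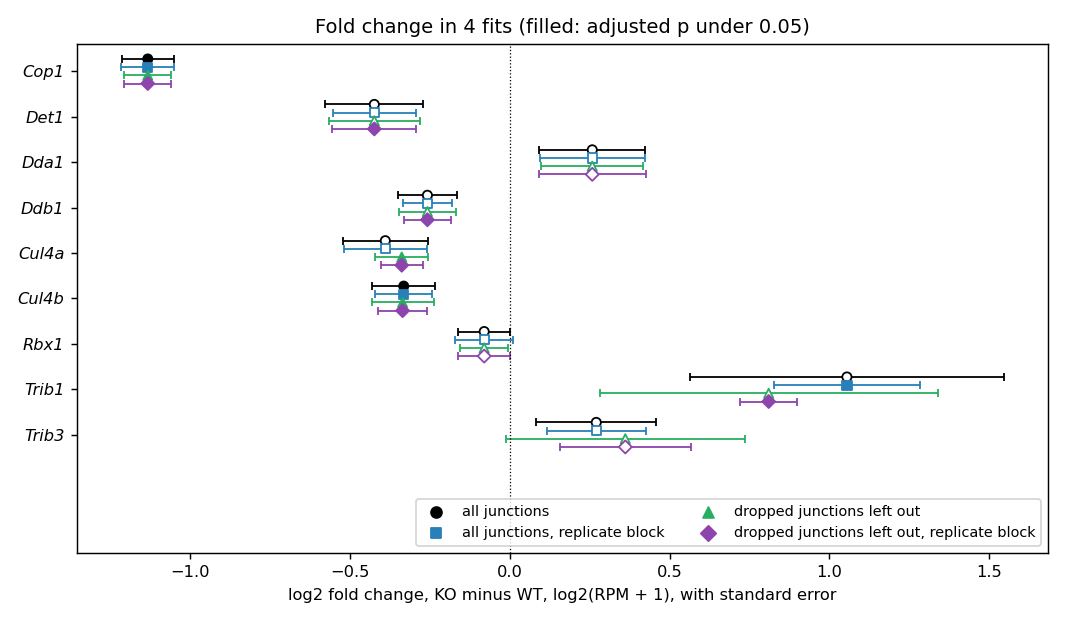
Log2 fold change (KO minus WT, on log2(RPM + 1)) with its standard error for the 9 genes in 4 limma fits, filled where the adjusted p was under 0.05. The standard error of Trib1 shrinks from 0.49 to 0.23 with the replicate block and is 0.09 with the block and dropped junctions left out, while Cop1 stays near -1.13 in all 4.

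The other genes of the pathway were read from lists chosen with earlier results of these data known. Their counts with all libraries and no block stand beside the 12.1% lower and 8.49% higher of all genes, and their medians beside the -0.07 of all genes. Counts with the replicate block stand beside 15.7% lower and 12.3% higher. Those without both libraries numbered 4 stand beside 14.1% and 11.0%. Among 25 tested genes of the COP9 signalosome and of cullin neddylation, which switch cullins off and on, 2 were lower and 2 higher, with a median log2 fold change of -0.23. With the replicate block 4 were lower and 2 higher, and without both libraries numbered 4 the counts were 3 and 1. Dcun1d3, of the family that helps load NEDD8 onto cullins, had 3.71, 5.88, 4.34 and 5.43 RPM in KO libraries 1 to 4, against 1.67, 2.34, 2.38 and 1.63 RPM in WT libraries 1 to 4. It rose without overlap (log2 fold change 0.95, SE 0.19, limma adjusted p = 0.012). Cops2, a subunit of the signalosome, averaged 152 ± 17.9 RPM in KO and 190 ± 6.63 RPM in WT (-0.33, adjusted p = 0.041), a call lost in 12 of 23 alternatives, among them TMM (0.072) and leaving out any 1 library but KO library 4 (adjusted p up to 0.10). Usp15, a deubiquitinase that works with the signalosome, averaged 175 RPM in KO and 212 RPM in WT (-0.28, adjusted p = 0.030), a call lost in 11 of 23, among them TMM (0.091) and leaving out any 1 of KO libraries 1 and 3 and WT libraries 1, 2 and 4 (adjusted p 0.057 to 0.082). Rnf7, the RING partner of CUL5, passed at 3.07 (adjusted p = 0.036) on 29.1, 16.04, 17.1 and 19.4 RPM in KO libraries 1 to 4, against 0.143, 0.212, 17.8 and 0.449 RPM in WT libraries 1 to 4. It holds dropped values, the WT libraries split within their group, and the call was lost without any 1 library but WT library 3 (adjusted p 0.051 to 0.093).

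Substrate receptors that share DDB1 and CUL4 with DET1 were lower more often than higher. Of 26 tested, 6 were lower and 1 higher, with a median of -0.17, 8 and 2 with the replicate block, and 6 and 2 without both libraries numbered 4. Dtl, the receptor that clears CDT1 in S phase, had 43.9, 44.3, 33.7 and 36.8 RPM in KO libraries 1 to 4, against 69.96, 73.2, 67.8 and 67.0 RPM in WT libraries 1 to 4. It fell without overlap, by -0.80 (SE 0.11, limma adjusted p = 0.0037). Dcaf15, the receptor that aryl sulfonamides turn against RBM39, averaged 61.1 ± 3.92 RPM in KO and 97.3 ± 5.38 RPM in WT (-0.66, adjusted p = 0.0026). Dcaf4 averaged 25.2 RPM in KO and 37.2 RPM in WT (-0.54, adjusted p = 0.016), a direction that its most read junction alone did not show (0.02). Dcaf6 was the 1 receptor that rose, at 45.6, 44.5, 50.4 and 30.3 RPM in KO libraries 1 to 4 against 26.8, 24.7, 21.9 and 23.8 RPM in WT libraries 1 to 4 (0.77, SE 0.16, adjusted p = 0.015). On its most-read junction alone it was 0.28 and did not pass (0.36). The other 3 that fell, given here because the count is small, were Dcaf1 (-0.40), Dcaf13 (-0.35) and Rbbp5 (-0.31), whose calls were lost without any 1 of 6, 7 and 7 libraries (adjusted p up to 0.095).

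Other cullin scaffolds and the F-box core gave 1 lower of 13 tested and none higher, with a median of -0.07. With the replicate block 3 were lower, and without both libraries numbered 4 it was 2. The 1 was Skp2, the F-box protein that degrades p27, at 11.6, 13.2, 10.9 and 8.77 RPM in KO libraries 1 to 4 against 18.8, 19.6, 26.5 and 18.4 RPM in WT libraries 1 to 4 (-0.85, SE 0.17, limma adjusted p = 0.012), and on its most-read junction alone -0.50 (0.091). Among ubiquitin genes and E1 and E2 enzymes, 1 of 17 was lower and 2 were higher, with a median of -0.15. The counts were equal with the block and without both libraries numbered 4, but there the gene that was lower was not Ube2d1 but Uba6, an E1 enzyme named after its values were seen (log2 fold change -0.39, limma adjusted p = 0.062 with all libraries and no block, 0.043 with the block and 0.013 without libraries numbered 4). Ubb, which encodes ubiquitin, rose, averaging 951 ± 38.2 RPM in KO and 723 ± 16.2 RPM in WT (log2 fold change 0.39, limma adjusted p = 0.0045). Ube2d1, an E2 enzyme, averaged 17.7 RPM in KO and 23.7 RPM in WT (-0.40, adjusted p = 0.041), a call lost without any 1 of the 8 libraries (adjusted p 0.055 to 0.11), with the block (0.067), without both libraries numbered 4 (0.084) and under TMM (0.081).

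Proteins reported to be bound or degraded through COP1 or Tribbles gave no lower and 2 higher of 19 tested, with a median of 0.01. The list holds 26 genes, of which 21 had junctions. Cebpa, Cebpb, Jun, Etv1 and Sfn had none and were not measured, while Foxo1 and Trib2 stayed under the filter. With the block 1 was lower and 4 higher, and without both libraries numbered 4 it was 2 and 5. Cebpe, a C/EBP factor of late granulocytes, had 32.3, 42.9, 36.1 and 7.12 RPM in KO libraries 1 to 4, against 3.19, 4.51, 8.41 and 0.730 RPM in WT libraries 1 to 4 (2.55, SE 0.65, limma adjusted p = 0.028). Cebpd had 5.61, 6.06, 6.61 and 2.80 RPM in KO libraries 1 to 4, against 1.10, 1.65, 3.86 and 1.63 RPM in WT libraries 1 to 4 (1.06, adjusted p = 0.048). Both calls were lost without any 1 of KO libraries 1 to 3 and WT libraries 1, 2 and 4 (adjusted p up to 0.079 for Cebpe and 0.12 for Cebpd). Among KO libraries both genes were lowest in library 4, which also held the least late neutrophil RNA. Stk40, a pseudokinase related to Tribbles that also binds COP1, had 58.0, 43.2, 59.1 and 56.4 RPM in KO libraries 1 to 4, against 56.0, 62.1, 54.9 and 40.9 RPM in WT libraries 1 to 4. Its groups overlapped (log2 fold change 0.02, SE 0.15, adjusted p = 0.94). Cebpa, whose protein is the known target of Trib1, has no intron and was not analysed here.

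Among 10499 genes compared over the 8 libraries, the patterns most like that of Cop1 were those of Mks1 (Pearson r 0.996), Ptma (0.993) and Itga4 (0.993), on the log2(RPM + 1) scale. For Cop1 the 8 values form 2 groups, KO and WT, so that likeness mainly means the same split with little spread. Itga4, the integrin chain α4, had 281, 233, 249 and 235 RPM in KO libraries 1 to 4, against 540, 490, 488 and 504 RPM in WT libraries 1 to 4, a KO mean of 49.4% of WT. Those most like Trib1 were Rhoc, a small GTPase (r 0.945), Gramd1b, a cholesterol transfer protein (0.939), and Usp32, a deubiquitinase (0.924). Gramd1b had 92.8, 106, 90.3 and 110 RPM in KO libraries 1 to 4 and 95.7, 102, 74.8 and 91.9 RPM in WT libraries 1 to 4, and none of the 3 passed the test between KO and WT (adjusted p 0.32 to 0.46).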

How the data were processed

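RNA of 8 libraries was read as splice junctions. The submitters' processing notes name Trimmomatic 0.39, kallisto and build mm10. The junction aligner, annotation and filters: not given in the sources used here. The authors deposited a normalised signal per junction: tested on the values, each is the junction's reads plus 1, scaled by the library's junction reads and 60 nt, with 0 reads at 1 floor of 0.854. Whole reads came back for 100% of values above the floor, within 0.001 of a read. A fragment over several junctions counts at each.

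From these reads, RPM per gene and junction were computed. The test, adapted to this unit, was limma 3.58.1 in R 4.3.3 (trend, robust, no block) on log2(RPM + 1) for genes and log2(RPM + 0.1) for junctions, with a mean of at least 1 RPM, 4 KO against 4 WT, and Benjamini-Hochberg adjustment over all features tested at a threshold of 0.05. Folds understate low genes. Junction use was tested with diffSplice. The count tests of edgeR 4.0.16 (quasi-likelihood) and DESeq2 1.42.0 were alternatives. Scripts were tested on simulated data. Single values were compared by two-sided exact permutation tests.

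A value was called dropped at 6 reads or fewer where the rest of its gene predicted 40 or more, at a common total of 20000000 reads: 49971 values, 7.22% of those of 86570 junctions. The fits without such junctions combined with the replicate block, TMM or fewer libraries were chosen after seeing the data.

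Replicate numbers paired the libraries: deviations from group means correlated at 0.32, 0.29, 0.36 and 0.55 within numbers 1 to 4, and at most 0.15 between numbers. No 2 libraries were duplicates.

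Members and gene lists were chosen with earlier results of these data known. Named were all 9 members, Trib2, Stk40 and Cebpa, up to 4 members of each list past the threshold with the smallest adjusted p, and the 3 genes most like Cop1 and Trib1; 1 gene that this rule names is not reported here. Loci and sequences are from Gencode M21 on mm10, where 13247 of 13378 genes had a symbol.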

Additional observations from a re-analysis of the deposited data

Results flagged for a closer look

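Of 210 sets of 4 libraries, 23 had a library far from the other 3, by the gap to its nearest neighbour over the whole range (Dixon's ratio). Chance flags about 1 in 20 of independent sets. Junctions of a gene share their libraries and transcripts, so the count of 23 cannot be set against that rate. Ddb1 took 13 of the 23. Its gene level in KO had a ratio of 0.8455, with KO library 4 at 1487 RPM and the others at 1127 to 1182 RPM. The same library was high at its junctions of blocks 7 and 8 (0.9406), 8 and 9 (0.9581), 9 and 10 (0.9537), 14 and 15 (0.8295), 16 and 17 (0.9008), 19 and 20 (0.8814), 22 and 23 (0.8411), 24 and 25 (0.917) and 26 and 27 (0.9461). In WT, Ddb1 stood out at blocks 2 and 3 (library 4 high, 0.8341), 7 and 8 (library 1 low, 0.916) and 22 and 23 (library 2 low, 0.8415).

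Cop1 stood out at blocks 15 and 16 in KO, where library 4 was low (0.9155, 4.18 RPM against 5.32 to 5.42 RPM in the others), and in WT, where library 1 was high, at blocks 10 and 11 (0.8322) and 16 and 17 (0.9064). Det1 was high in WT library 1 at blocks E4.3 and E5.1 (0.8586). Cul4b was low in KO library 3 at blocks 9 and 10 (0.9337) and in KO library 1 at blocks 19 and 20 (0.9165). Rbx1 was low in WT library 1 at blocks 1 and 2 (0.8448). Among the listed genes, Stk40 was low in KO library 2 (0.8316), while WT library 3 was high for Rnf7 (0.9827, 17.8 RPM against 0.143 to 0.449 RPM) and Skp2 (0.8551).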

How the results depend on the processing

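Cop1 stayed lower and past the threshold in all 23 alternatives (log2 fold change -1.18 to -0.94). Trib1 stayed higher in all 23 and passed in 4: DESeq2 (1.16), the replicate block (1.06), the block without dropped junctions (0.81) and the block without both libraries numbered 4 (0.76, adjusted p = 0.0099). The DESeq2 fit and the block fit on all junctions include the WT library 4 value that is short of a junction. The block changed the calls of Trib1, Ube2d1 and Uba6 among named genes. Members lower numbered 1 with DESeq2, TMM, the most-read junction alone or no filter, 4 without dropped junctions and both libraries numbered 4, 5 with the block and no dropped junctions, and 1 to 3 leaving out 1 library. Over all genes, 1077 of 9548 were lower on the most-read junction alone and 1225 of 13378 with no filter. Leaving out 1 library, it was from 706 of 10967 (without KO library 3) to 1742 of 10970 (without KO library 4). Members higher numbered 1 in the 4 fits that called Trib1. All genes called numbered 4376 with the block and no dropped junctions, 3889 without dropped junctions and libraries numbered 4, and 1215 to 2991 leaving out 1 library. Member junctions lower numbered 40 without both libraries numbered 4, beside 10.0% of all junctions. Leaving out 1 library they numbered 17 to 48, the 48 without KO library 4 beside 12.6% of all junctions. With the block 1 (Trib1) was higher, beside 6.03%.

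Fold changes turned for Rbx1 (DESeq2 0.00026, TMM without dropped junctions 0.0019), Dcaf4 (most-read junction 0.020) and Stk40 (-0.012, -0.021 and -0.097 without KO library 1, KO library 3 or WT library 4, and -0.12 without both libraries numbered 4, with or without the block, within -0.097 to 0.13 leaving out 1 library). The cause was not tested.

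The share of all genes called changed between fits too. Without dropped junctions 1957 of 10992 genes were lower and 1211 higher, and with the block too 23.5% were lower and 16.3% higher. Without dropped junctions and libraries numbered 4 it was 2295 and 1594 of 10882. COP9 and neddylation genes lower numbered 0 under TMM, 1 with DESeq2, the most-read junction or no filter, 4 with the block, 5 without dropped junctions, 10 with the block too, 11 without dropped junctions and libraries numbered 4, and 0 to 5 leaving out 1 library. Higher, 1 or 2 were called throughout. CUL4 receptors lower numbered 2 on the most-read junction, 10 with the block and no dropped junctions and 3 to 7 leaving out 1 library, and 1 to 3 were higher (2 with DESeq2, the block or no libraries numbered 4, 3 with the block and no dropped junctions). Other cullins lower numbered 0 on the most-read junction, 2 or 3 with the block, without dropped junctions or without libraries numbered 4, and 1 to 3 leaving out 1 library. Substrates lower numbered 1 with the block or on the most-read junction, 2 without libraries numbered 4, 3 without dropped junctions, 5 without both, and 0 to 2 leaving out 1 library, and higher 1 with no filter, 4 with the block or without dropped junctions, 5 under TMM or without libraries numbered 4, 6 with DESeq2 or the block and no dropped junctions, and 0 to 4 leaving out 1 library. Ubiquitin genes lower numbered 0 under TMM or no filter, 2 on the most-read junction or without dropped junctions, 3 without libraries numbered 4 too, 5 with the block and no dropped junctions, and 0 to 1 leaving out 1 library.

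Depth limits Dda1 and Det1, with 44 to 161 reads a library, and 13 member junctions under 1 RPM. Drug and genotype cannot be told apart, and the limits given for 0 reads cover counting error only, as reads carry no molecular identifiers.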
